A study of Mus musculus with 22 samples.

Results

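Microglia, the resident macrophages of the brain, were examined for 8 genes that lay higher or lower with Covi-Ox, a mixture of tocopherols of the vitamin E family, in wild-type (WT) mice. The genes were F3, Cd69, Cd44, Il7r, Il12b, Ccn1, Leap2 and Tagap, 8 of the 19937 genes with a probe set of their own on the array. They had been picked because they differed with Covi-Ox in WT, alone or on top of cuprizone, a compound fed to mice to make them lose brain myelin. The genes were thus chosen by their WT intensities, with no stated cut-off, so the WT values below are a description and carry no test. The question left to test was whether mice without Trem2, a microglial receptor for lipids, followed; these are called KO here.

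Expression was measured on 22 Affymetrix arrays from microglia sorted as CD11b, CD45 and F4/80 triple-positive cells, in 8 groups of 2 or 3 arrays. The WT groups were those labelled negative control (2 arrays), cuprizone (3), Covi-Ox (3) and both additives (3). The KO groups with settled labels were negative control (2) and cuprizone (3), in mice labelled Trem2(-/-). Cuprizone made up 0.2% of the feed and Covi-Ox, with extra alpha tocopherol, 0.1%, for 4 weeks by the array labels. Mice on both additives had first eaten the Covi-Ox feed for 2 weeks, and mice on cuprizone only normal chow for 2 weeks. The sources used here do not give strain or age, nor whether an array held 1 animal or a pool.

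The labels of the other 6 KO arrays disagree with themselves. In 3 arrays, called set A, the title names both additives whereas description, source and treatment name only Covi-Ox. In 3 more, called set B, it is the reverse. Neither reading was chosen. Both readings put Covi-Ox in the feed of sets A and B, so the mean of the 2 sets against the mean of KO control and KO cuprizone compares feed with and without Covi-Ox whichever reading holds.

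The genes have different roles. F3 encodes tissue factor, the membrane receptor for coagulation factor VII that starts the clotting cascade. Cd69 is a lectin-like receptor that appears early in leukocyte activation, and Cd44 is the main receptor for the matrix polymer hyaluronan. Il7r encodes the alpha chain of the interleukin-7 receptor, and Il12b the p40 subunit that interleukin-12 and interleukin-23 share. Ccn1 is a secreted matrix protein whose gene responds quickly to growth factors and to the coactivator YAP. Leap2 is a small secreted peptide that blocks the ghrelin receptor, and Tagap is a signalling protein that acts in T cells and downstream of the lectin Dectin-1.

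RefSeq promoter windows (GRCm38.p6, 250 bases before to 50 after the annotated start) were at hand for 6 of the 8 genes, all but Cd69 and Leap2. The windows of F3, the gene that passed the test in KO, of Il12b, which did not, and of Ccn1, which lay lower on both additives in WT, are shown 5′ to 3′ on the gene's strand. Capitals mark matches to the motifs named after them. F3 lies at chr3:121723287-121723586 on the plus strand, Il12b at chr11:44399813-44400112 on the plus strand and Ccn1 at chr3:145649936-145650235 on the minus strand.
F3: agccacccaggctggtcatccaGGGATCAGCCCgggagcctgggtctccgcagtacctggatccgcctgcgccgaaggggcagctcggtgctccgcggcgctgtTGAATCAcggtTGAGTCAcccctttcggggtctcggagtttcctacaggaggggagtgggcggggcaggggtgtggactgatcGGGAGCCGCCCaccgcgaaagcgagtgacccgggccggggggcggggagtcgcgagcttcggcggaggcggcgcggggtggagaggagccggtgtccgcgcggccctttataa
Il12b: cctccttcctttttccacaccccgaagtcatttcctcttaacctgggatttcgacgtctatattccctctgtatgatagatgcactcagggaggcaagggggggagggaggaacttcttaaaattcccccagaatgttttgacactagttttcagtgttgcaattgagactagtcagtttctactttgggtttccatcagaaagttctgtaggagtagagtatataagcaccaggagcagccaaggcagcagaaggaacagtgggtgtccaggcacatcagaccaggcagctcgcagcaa
Ccn1: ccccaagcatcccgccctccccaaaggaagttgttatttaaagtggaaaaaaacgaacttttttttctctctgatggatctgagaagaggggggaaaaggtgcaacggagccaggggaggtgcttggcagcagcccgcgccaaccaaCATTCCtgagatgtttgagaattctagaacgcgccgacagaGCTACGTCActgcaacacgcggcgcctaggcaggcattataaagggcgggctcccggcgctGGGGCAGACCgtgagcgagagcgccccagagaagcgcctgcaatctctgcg
The motifs were searched on both strands. The AP-1 motif TGANTCA occurred in F3 as TGAATCA starting at -146 and as TGAGTCA starting at -135, counted from the annotated start. In all 32851 RefSeq promoter windows 7.81% held this motif. The kappaB motif, GGG and CC with any 5 bases between them, matched the F3 window at 4 positions, in overlapping pairs on both strands, and 50.8% of all windows held it. In the Ccn1 window the TEAD motif GGAATG occurred on the reverse strand as CATTCC at -103 (14.7% of windows hold it), and the antioxidant response motif TGACNNNGC on the reverse strand as GCTACGTCA at -62 (12.4% of windows). The kappaB motif also matched Ccn1 at -1. Il12b held none of the motifs searched, nor did Il7r. Tagap held kappaB and TEAD matches, and Cd44 matched kappaB at -45 and 2. The cyclic AMP motif TGACGTCA (1.79% of windows) and the CArG motif, CCATAT and GG with any 2 bases between them (0.502%), occurred in none of the 6 windows. A match describes these letters only.

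All 12 measured microglia markers lay above the array median (36.1 to 38.6 intensity units) on every array, and Trem2 had 1022 to 1724 in WT against 84.5 to 114 in KO. Neutrophil markers were unequal: the summed intensity of 10 such genes ran from 2007 to 2061 in KO control and 1055 to 3394 in KO cuprizone, against 324 to 393 in set A and 231 to 803 in set B. It was 3360 to 3410 in WT control, 702 to 2465 in WT cuprizone, 186 to 253 in WT Covi-Ox and 375 to 556 in WT both. None of the 10 was above the array median on every array, and Mmp8, Ly6g and Cxcr2 lay below it on all. Monocyte and border macrophage markers were unequal too. The sum of 7 monocyte genes was 506 to 1345 in WT cuprizone and 925 to 1017 in WT both. It was 325 to 387 in WT Covi-Ox, 398 to 469 in set A and 330 to 363 in set B. The sum of 11 border macrophage genes was 1736 to 2097 in WT both and 2808 to 3467 in WT Covi-Ox. It was 2623 to 3329 in set A and 1711 to 2476 in set B. The part of these cell types in the results below was not tested. Of 16 measured T and NK cell markers, 10 lay below the median on every array, Cd3d, Cd3g and Cd2 among them. Another 3, Cd3e, Cd247 and Prf1, lay above it on every array. The summed level of the 16 was 397 to 466 over all groups. The mean log2 level of 26 immediate-early genes, which respond to cell dissociation, was low on 3 arrays (8.53 for the WT cuprizone array 3, 8.74 and 8.79 for the KO cuprizone arrays 2 and 3), against 9.56 to 9.81 on the other arrays. In sorted cells a change in the share of a cell type and a change in RNA per cell cannot be told apart.

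**Figure D1:**
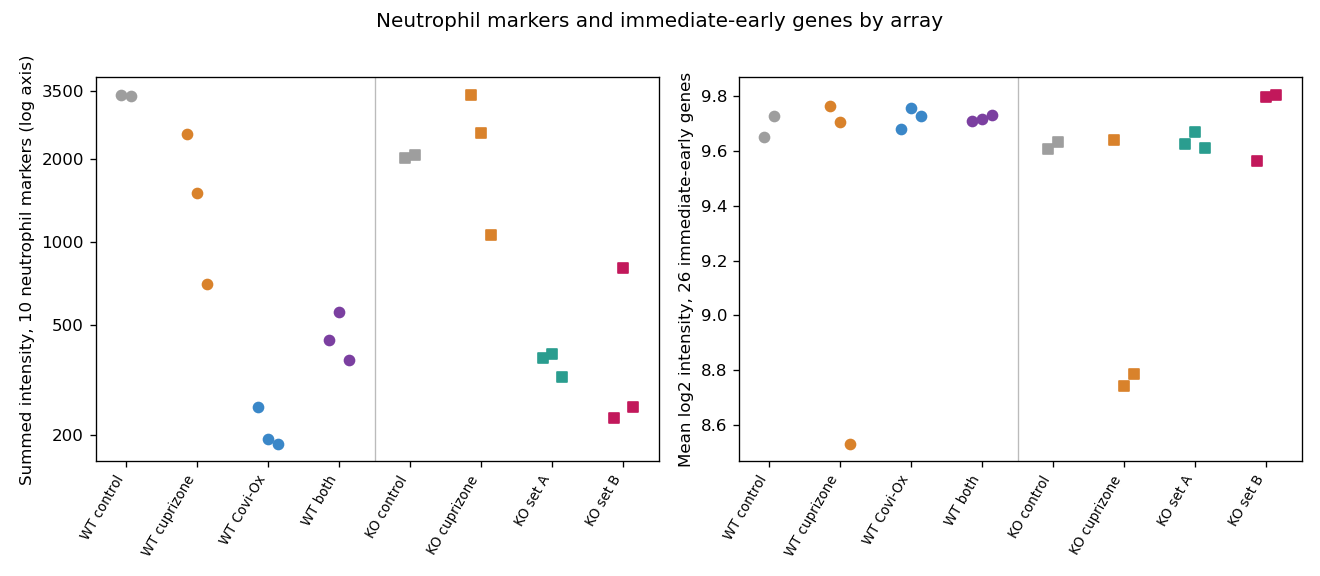
Left, summed intensity of 10 neutrophil markers on a log axis. Right, mean log2 intensity of 26 immediate-early genes. Each point is an array, circles WT and squares KO. Neutrophil markers reached at most 803 with Covi-Ox and lay between 702 and 3410 without it, and 3 cuprizone arrays, 1 WT and 2 KO, lay low in immediate-early genes.

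In the comparison that does not depend on the reading of the labels, none of the 8 genes passed the test in KO. Fitted with limma over all 11830 genes tested, 17 genes (0.144%) passed adjusted p under 0.05 in the 6 KO arrays with Covi-Ox against the 5 without, 11 higher and 6 lower, and 1391 passed unadjusted p under 0.05. Of the 8 genes, 0 passed after adjustment and 3, F3, Cd69 and Leap2, before it. Their median difference was 0.15 (log2), against 0.01 over all genes. F3 had the lowest adjusted p of the 8 (0.0992) and the largest difference, 0.57 ± 0.14 (log2, SE, n = 6 and 5), with a 95% interval of 0.27 to 0.86. Leap2 was 0.30 ± 0.10 (adjusted p = 0.230) and Cd69 0.43 ± 0.17 (adjusted p = 0.333). The remaining 5 lay between -0.10 for Il7r and 0.16 for Cd44, with adjusted p from 0.512 to 0.926. With an array left out F3 ran from 0.44 to 0.69 and Leap2 from 0.20 to 0.40. The highest values, F3 0.69 and Leap2 0.40, came without KO control 1. That leaves KO control 2, the lower of the pair in both genes, alone in its group. Without KO cuprizone 1, when 133 genes passed, F3 was 0.65 (adjusted p = 0.0246). Only KO cuprizone 2 and 3, both low in immediate-early genes, then remain in that group.

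F3, tissue factor, was the 1 gene of the 8 that passed the test in any KO comparison. In WT it had 33.7 and 27.7 intensity units in control, 49.9, 36.7 and 33.3 on cuprizone, 27.6, 27.4 and 38.9 on Covi-Ox, and 101, 98.4 and 126 on both. The arrays on both additives stood above all other WT arrays, 2.74-fold over cuprizone, while Covi-Ox alone overlapped control. In KO it had 31.5 and 22.2 in control, 41.0, 30.1 and 27.7 on cuprizone, 34.8, 32.9 and 28.3 in set A, and 62.3, 64.0 and 51.8 in set B. All 3 set B arrays lay above all other KO arrays, and below all 3 WT arrays on both additives. Of all genes, 15.2% had every set B array above KO control and 8.36% above KO cuprizone. Against KO control, set B was higher by 1.16 ± 0.21 (log2, SE, n = 3 and 2, 2.23-fold), with adjusted p = 0.0172. In this comparison 88 genes (0.744%) passed, 65 of them higher (0.549%), and F3 ranked 15 by p. The Y-chromosome gene Eif2s3y passed too, at 1.21 ± 0.25 (adjusted p = 0.0336). In set A against KO control Eif2s3y was 1.87 ± 0.25 (adjusted p = 0.00511). Whether the groups differed in sex was not tested. The F3 levels in KO control lay below the array median, where intensities are not exact, so the fold is not exact either. The call ended without KO control 2 (0.91, adjusted p = 0.307), without set B array 1 (1.12, adjusted p = 0.0562), without set B array 2 (1.10, adjusted p = 0.0807) and with array weights (1.14, adjusted p = 0.125). None of the 3 arrays low in immediate-early genes belongs to either group, and with that mean added as a covariate the difference was 1.12 (adjusted p = 0.00387). Set A differed from KO control by 0.27 ± 0.21 (adjusted p = 0.659).

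Against KO cuprizone, set B was higher in F3 by 0.87 ± 0.19 (log2, SE, n = 3 and 3), just outside the threshold (adjusted p = 0.0582). The arrays did not overlap, as for 8.36% of all genes in the same direction. Leaving out the 3 low arrays leaves KO cuprizone 1 alone in its group, the array with the highest F3 of that group (41.0). The difference was then 0.53. Without KO cuprizone 1, only KO cuprizone 2 and 3 remain in the group, both low in immediate-early genes. The difference was then 1.03 (adjusted p = 0.00880). Set A had -0.03 ± 0.19 (95% interval -0.42 to 0.37). The 2 sets differed from each other by -0.89 ± 0.19 (set A minus set B, adjusted p = 0.0828). That difference had an adjusted p of 0.0239 without the 3 low arrays.

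Cd69, like F3, lay highest in set B among the KO groups, without passing the test. In WT its values were 21.8 and 14.1 in control, 52.4, 45.3 and 45.9 on cuprizone, 22.6, 15.6 and 24.6 on Covi-Ox, and 124, 135 and 78.0 on both. Cuprizone arrays lay above control, and arrays on both additives lay above cuprizone, 2.29-fold. In KO the values were 17.0 and 19.6 in control, 19.7, 16.0 and 16.3 on cuprizone, 20.2, 12.8 and 15.9 in set A, and 32.2, 29.4 and 48.3 in set B. Set B stood above all other KO arrays, and 1 of its arrays reached the range of WT cuprizone. Of all genes, 15.2% had every set B array above KO control and 8.36% above KO cuprizone. Set B exceeded KO cuprizone by 1.05 ± 0.23 (log2, SE, n = 3 and 3, adjusted p = 0.0618) and KO control by 0.97 ± 0.26 (n = 3 and 2, adjusted p = 0.0942). Set A lay 1.16 ± 0.23 below set B (adjusted p = 0.0741). Without the 3 low arrays, which leaves KO cuprizone 1 alone in its group, the excess over KO cuprizone was 0.86. The gap between the sets stayed at 1.16. KO arrays other than 1 of set B lay below the array median for Cd69. It thus passed the filter on low values, which asks for 2 arrays, only through WT arrays. These KO values lie where intensities are not exact.

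Cd44, the hyaluronan receptor, lay higher on cuprizone in WT. Its KO group means spanned 0.37 (log2), against a median of 0.26 over all genes. WT arrays on both additives had 130, 134 and 132 intensity units, WT cuprizone 67.7, 57.6 and 76.0, control 38.3 and 28.2, and Covi-Ox 33.9, 32.0 and 32.1. The 2 cuprizone groups stood apart from each other (1.98-fold) and from the groups without cuprizone. In KO control had 27.7 and 34.2, cuprizone 31.2, 41.8 and 31.6, set A 34.9, 33.9 and 31.7, and set B 36.6, 46.4 and 37.3. No KO array reached the lowest WT cuprizone array. Set B against KO control was 0.37 ± 0.16 (log2, SE, adjusted p = 0.278) and against KO cuprizone 0.21 ± 0.14 (adjusted p = 0.702, 95% interval -0.09 to 0.50).

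Il7r was the receptor that lay lower with both additives in WT. It had 252 and 238 in WT control, 196, 204 and 225 on cuprizone, 295, 287 and 285 on Covi-Ox, and 153, 105 and 133 on both. Arrays on both additives lay below every other array of either genotype, 1.62-fold below WT cuprizone. In KO the values were 261 and 275 in control, 265, 249 and 235 on cuprizone, 287, 253 and 242 in set A, and 190, 268 and 216 in set B. Set B overlapped KO cuprizone, at -0.17 ± 0.13 (log2, SE, adjusted p = 0.765, 95% interval -0.44 to 0.11), and set A had 0.06 ± 0.13 (95% interval -0.21 to 0.33).

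Il12b, the p40 cytokine subunit, lay below the array median in all but 1 group. The 3 WT arrays on both additives (48.7, 58.8 and 55.3) were the only arrays above their array's median. The other WT values were 24.1 and 22.3 in control, 25.9, 30.4 and 24.8 on cuprizone, and 21.3, 23.7 and 25.9 on Covi-Ox. KO control had 19.5 and 26.8, KO cuprizone 26.4, 25.4 and 22.3, set A 25.2, 25.2 and 27.5, and set B 27.0, 25.6 and 26.5. KO group means spanned 0.20 on the log2 scale. The WT span, 1.22, rests on the values that chose the gene, and 54.3% of all genes had a smaller span in KO. Against KO cuprizone the difference had a 95% interval of -0.18 to 0.33 for set A and -0.16 to 0.35 for set B. Il12b passed the filter on low values through the 3 WT arrays alone, so these KO values lie where intensities are not exact.

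**Figure D2:**
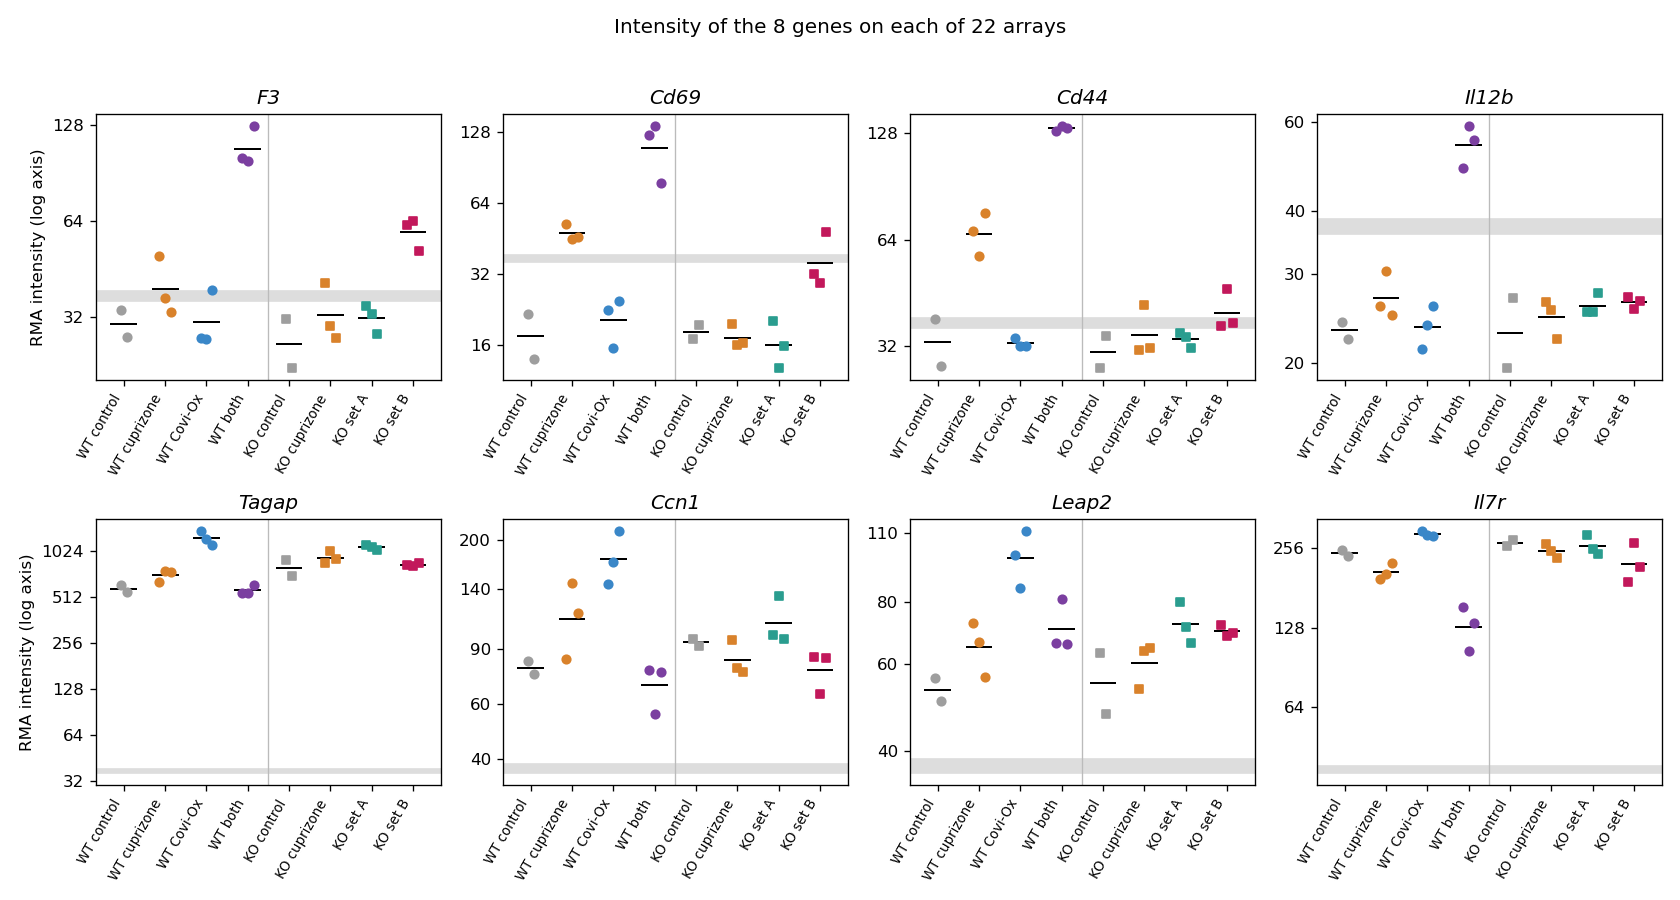
RMA intensity of the 8 genes on each of the 22 arrays, on log axes that differ between panels. Points are arrays (circles WT, squares KO), black lines geometric means of a group, and the grey band the range of array medians, 36.1 to 38.6. For F3 and Cd69, set B lies above the other KO groups. For Cd44 and Il12b the KO groups lie closer together than the WT groups, whose values chose the genes.

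Ccn1, Leap2 and Tagap lay higher with Covi-Ox alone in WT. Ccn1, the secreted matrix protein, had 82.1 and 74.9 in WT control, 83.4, 146 and 117 on cuprizone, 144, 170 and 213 on Covi-Ox, and 76.8, 56.0 and 75.7 on both. The level was 2.22-fold above control on Covi-Ox, and on both additives 1.64-fold below cuprizone. In KO the values were 97.1 and 92.3 in control, 96.0, 78.0 and 75.8 on cuprizone, 99.4, 133 and 97.1 in set A, and 84.8, 64.5 and 84.0 in set B. Set A lay above KO cuprizone on every array, by 0.39 ± 0.19 (log2, SE, n = 3 and 3, adjusted p = 0.465), as did 9.09% of genes. Set A exceeded set B by 0.49 ± 0.19 (adjusted p = 0.425). Set A against KO control was 0.20 ± 0.21 (95% interval -0.25 to 0.65) and set B against KO control -0.29 ± 0.21 (95% interval -0.74 to 0.15).

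Leap2, the ghrelin receptor antagonist, was the gene for which all 6 KO arrays with Covi-Ox lay above all 5 without, as for 0.642% of genes. Set A had 79.8, 71.0 and 66.0 and set B 71.9, 68.3 and 69.1, against 63.1 and 47.6 in KO control and 53.4, 63.7 and 64.5 on KO cuprizone. The lowest array with Covi-Ox and the highest without were 66.0 and 64.5, so the groups were separated narrowly. WT control had 56.3 and 50.3, cuprizone 72.5, 66.4 and 56.3, Covi-Ox 99.2, 85.3 and 111, and both 66.0, 81.1 and 65.6. WT Covi-Ox stood above all other groups, 1.84-fold over control, and both additives overlapped cuprizone. Against KO control, set A was higher by 0.39 ± 0.15 (log2, SE, n = 3 and 2, adjusted p = 0.320) and set B by 0.35 ± 0.15 (adjusted p = 0.291). The 95% intervals were 0.08 to 0.71 and 0.03 to 0.66.

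Tagap, the signalling protein, lay highest with Covi-Ox alone in WT and in set A in KO. WT control had 610 and 555, cuprizone 640, 764 and 753, Covi-Ox 1375, 1234 and 1121, and both 543, 543 and 619. Covi-Ox alone lay 2.13-fold above control and above all other WT arrays. KO control had 901 and 708, KO cuprizone 855, 1028 and 910, set A 1123, 1096 and 1044, and set B 828, 815 and 860. Set A lay above the other KO arrays, and 1 of its arrays reached the range of WT Covi-Ox. Of all genes, 13.4% had every set A array above KO control and 9.09% above KO cuprizone. Set A exceeded KO control in Tagap by 0.44 ± 0.13 (log2, SE, n = 3 and 2, adjusted p = 0.192), and set B by 0.38 ± 0.11 (n = 3 and 3, adjusted p = 0.241). Without KO control 1, which leaves KO control 2 (708) alone in its group, the first of these was 0.62. A second probe set matches both Tagap and its near-identical copy Tagap1, so the genes cannot be told apart there. On it set A exceeded KO control by 0.26 ± 0.13, and WT Covi-Ox exceeded WT control by 0.74.

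The KO values can be set beside the WT values under each reading of the labels. If the titles hold, set A is the group on both additives, and 2 of the 8 genes, Il12b and Leap2, had the sign of WT beside cuprizone (50.4% of all genes did). If the other fields hold, set B is that group, and 8 of 8 had the sign of WT (52.9% of all genes). For Covi-Ox alone 5 of 8 had the WT sign under either reading, against 56.3% of all genes by the titles and 54.6% by the other fields. These counts are a description, since the WT signs belong to the values that chose the genes. Of the KO differences beside cuprizone 0 of 8 passed the test by the titles, where 0 of 11830 genes (0%) passed and 1292 did unadjusted. By the other fields 0 of 8 passed, where 19 genes (0.161%) did. F3 and Cd69 were under 0.05 unadjusted there, as were 1114 of all genes. Set A against KO control gave 0 of 8 with 4 genes passing (0.0338%). Unadjusted it gave 2 of 8, Tagap and Leap2, and 1364 of all genes. Set A against set B gave 0 of 8, with 1 gene passing (0.00845%). Unadjusted it gave 4 of 8, F3, Cd69, Tagap and Ccn1, and 1041 of all genes. KO cuprizone against KO control gave 0 of 8, also unadjusted, with 5 genes passing (0.0423%) and 1591 unadjusted. Against KO control, all set B arrays lay above in F3, Cd69, Cd44 and Leap2 (15.2% of genes did so), and all set A arrays in Tagap, Ccn1 and Leap2 (13.4%). Differences between the genotypes were not tested, because the WT values chose the genes.

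**Figure D3:**
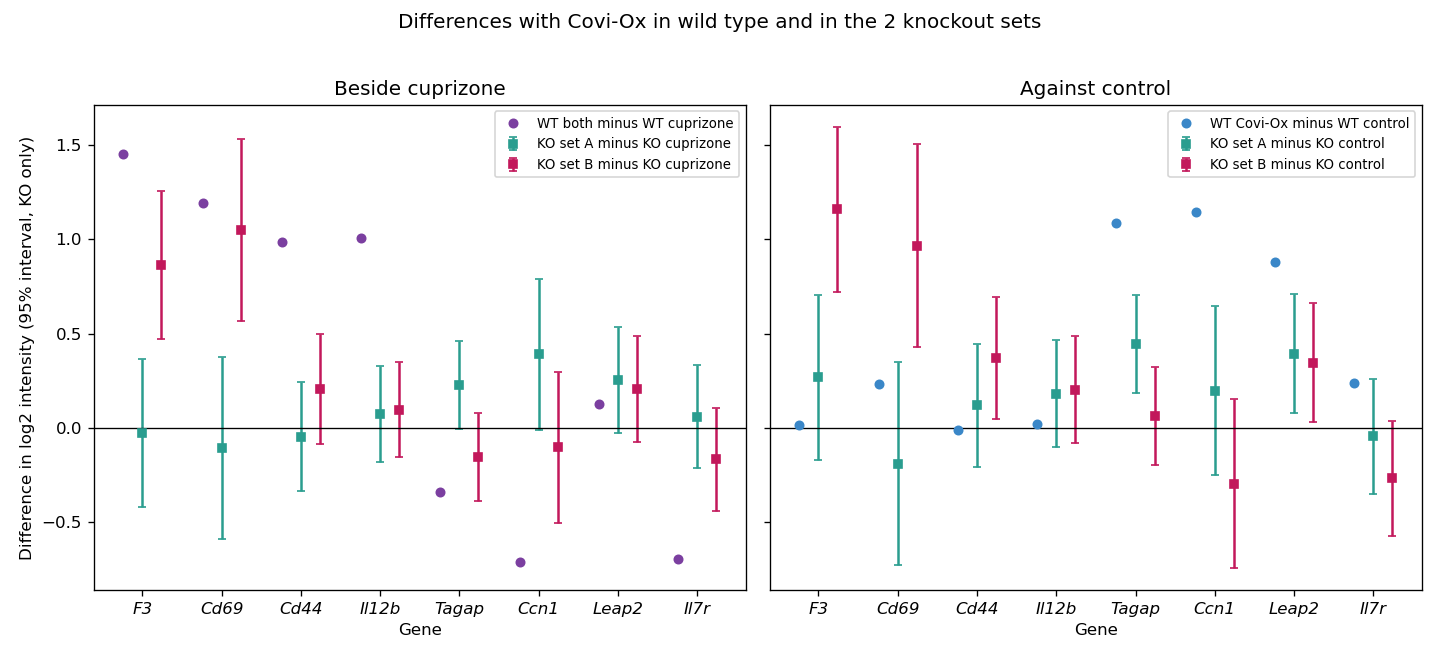
Log2 differences with Covi-Ox beside cuprizone (left) and against control (right) for the 8 genes. Circles are WT values, drawn without an interval since they chose the genes. Squares are sets A and B with 95% intervals. Beside cuprizone, F3 and Cd69 of set B lie above 0 with their whole intervals, while the intervals of set A hold 0 for all 8 genes.

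Across arrays, the 4 genes that lay higher with both additives in WT went together, and Il7r went against them. Over the 11 WT arrays Pearson's r was 0.961 for F3 with Il12b, 0.969 for Cd44 with Cd69 and -0.938 for Il12b with Il7r. Over the 11 KO arrays it was 0.241, 0.439 and -0.191. F3 with Cd69 had 0.888 in WT and 0.754 in KO. Tagap with Ccn1 had 0.883 in WT and 0.459 in KO. These describe arrays that fall into groups by diet, and the WT values rest on the groups that chose the genes.

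**Figure D4:**
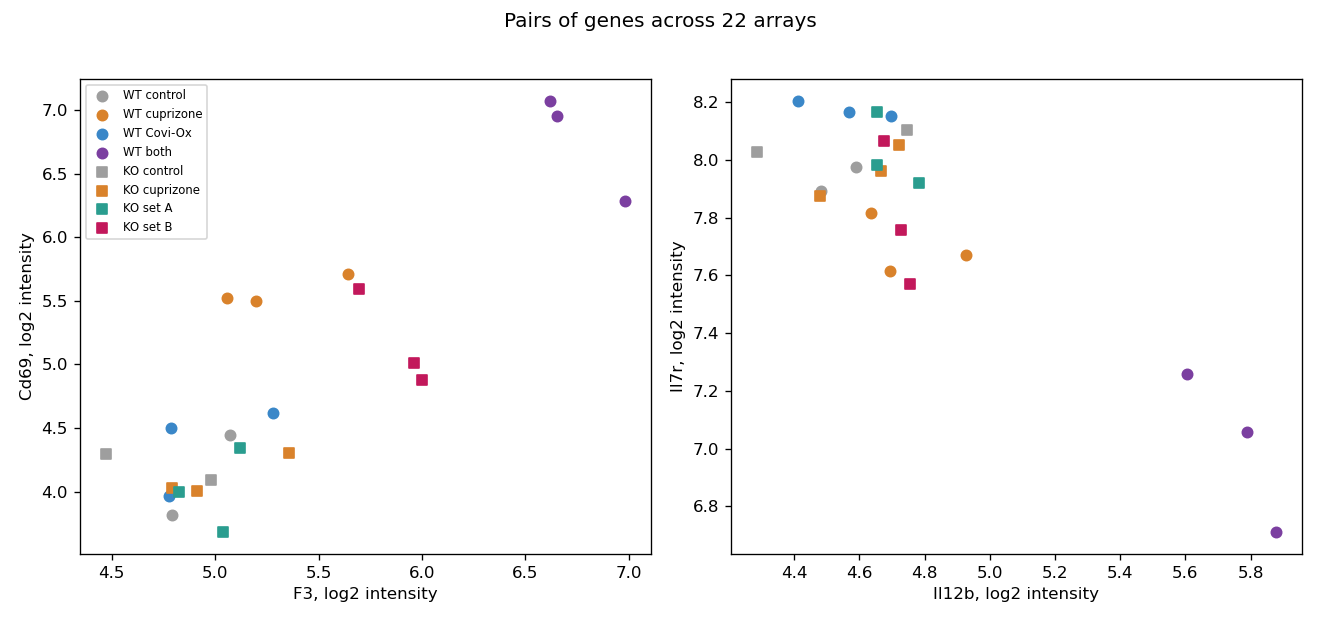
Log2 intensity of F3 against Cd69 (left) and of Il12b against Il7r (right) on 22 arrays, circles WT and squares KO. The WT arrays on both additives stand apart in both panels. Set B lies between them and the other KO arrays for F3 and Cd69. For Il12b and Il7r the KO arrays overlap the other WT arrays.

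The genes with the most similar pattern were named by Pearson's r over the 22 arrays. For F3 they were Osm (0.887), Cd274 (0.851) and Cd69 (0.847), and for Cd69 they were Cd274 (0.921), Cd44 (0.917) and Tlr2 (0.912). Cd44 went closest with Il1rn (0.967), Gpnmb (0.964) and Atp6v0d2 (0.952), and Il12b with Rgs16 (0.907), Olr1 (0.883) and Cd44 (0.878). Il7r went with Sesn1 (0.902), Adgrg1 (0.90) and Klf3 (0.874). Tagap went with 1700017B05Rik (0.851), Sall1 (0.819) and Gpr183 (0.817), Leap2 with Foxn2 (0.821), Vav2 (0.808) and Tnfrsf14 (0.805), and Ccn1 with Atp6ap2 (0.730), Pdxk-ps (0.699) and Prpf38b (0.698). Ccn1 thus had the loosest match of the 8.

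Among other genes of the same pathways few passed the test in KO. In the 6 arrays with Covi-Ox against the 5 without, limma called 0 genes in each of 9 pathway lists. The median over all genes was 0.01 (log2), and 1391 of 11830 genes were under 0.05 unadjusted. In the coagulation and plasminogen list around F3, 5 of 7 tested genes had a positive difference (median 0.21, 1 gene under 0.05 unadjusted). For the interleukin-12 and interleukin-23 family it was 3 of 8 (median -0.01, 2 unadjusted), and for interleukin-7 receptor signalling 5 of 8 (0.06, 2 unadjusted). Hyaluronan genes and Cd44 partners had 5 of 8 positive (0.03, 1 unadjusted) and Cd69 neighbours with sphingosine-1-phosphate egress 5 of 10 (-0.02, 0 unadjusted). The CCN family and YAP-TEAD targets had 3 of 9 (-0.01, 0 unadjusted) and Dectin-1 and Tagap signalling 9 of 11 (0.05, 0 unadjusted). Genes of tocopherol handling had 5 of 12 positive (-0.02, 1 unadjusted), and NRF2 antioxidant genes 9 of 15 (0.05, 2 unadjusted). The partners of p40 could not be followed: Il12a had group means of 26.6 to 32.1 and Il23a of 19.3 to 30.8, too low to be tested. For F3, the ligand gene F7 and its substrate gene F10 were likewise too low, and Tfpi, the inhibitor of tissue factor, had group means of 138 in KO control, 184 in set A and 166 in set B.

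The antimicrobial and ghrelin list was the exception, with 2 of 10 tested genes called, each of them lower. In this list 0 of 10 had a positive difference (median -0.22, 5 unadjusted). S100a8 and S100a9, the calprotectin subunits that neutrophils hold in bulk, both fell. The log2 difference was -3.57 ± 0.47 (SE, 11.9-fold lower, adjusted p = 0.00388) for S100a8 and -3.23 ± 0.48 (adjusted p = 0.00938) for S100a9. Leap2's receptor gene Ghsr had group means of 58.4 to 72.2 in all 8 groups. In set B against KO control 0.744% of all genes passed. Of 7 coagulation genes 1 passed there, Plaur, the urokinase receptor, at 0.98 ± 0.20 (adjusted p = 0.0309). Of 11 Dectin-1 genes 1 passed, Clec7a, Dectin-1 itself, at 0.97 ± 0.21 (adjusted p = 0.0349). Both were named after their values were seen. Clec7a had the same group mean, 99.2, in KO cuprizone and in set B, and 47.5 in set A. KO cuprizone exceeded KO control in Clec7a by 0.97 ± 0.21 (adjusted p = 0.0860).

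NF-kappaB targets and immediate-early genes mostly had positive differences on the Covi-Ox side in KO, without passing the test. In the averaged comparison 27 of 29 NF-kappaB genes had a positive difference (median 0.57, against 0.01 over all genes), 0 passed and 15 were under 0.05 unadjusted. Among 26 immediate-early genes 24 had one (median 0.33), 0 passed and 9 were under 0.05 unadjusted. In set B against KO cuprizone 1 of the 29 NF-kappaB genes passed, the chemokine gene Cxcl10, at 2.53 ± 0.44 (adjusted p = 0.0253), and the median was 1.02. In set B against KO control, where no low array enters the groups, that median was 0.35 and 0 of 29 passed. There 7 were under 0.05 unadjusted, as were 1685 of all 11830 genes. Immediate-early genes had a positive difference from KO control in 14 of 26 in set A (median 0.014, 1 unadjusted) and in 14 of 26 in set B (median 0.033, 0 unadjusted). The averaged comparison holds the 2 low KO cuprizone arrays among its 5 arrays without Covi-Ox.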

How the data were processed

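RNA from sorted microglia was hybridised to 22 Affymetrix arrays, 1 per sample. The authors deposited probe set intensity on a linear scale, made with RMA per the submitters' processing notes; the sources used here give no version, settings or genome build. RMA is meant to equalise distributions between arrays, so a change in total RNA cannot be seen. The medians of the deposited arrays still ran from 36.1 to 38.6.

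The deposited intensity was turned to log2. Of 28098 probe sets (2 missing cells), 21640 named 1 gene in the platform's probe table. Each gene was represented by its probe set with the highest mean and tested if 2 or more arrays showed it above their own 50th percentile: 11830 of 19937 genes, all 8 members among them. One limma 3.58.1 model (R 4.3.3) held the 8 group means, with 14 residual degrees of freedom. Tests were two-sided, with Benjamini-Hochberg adjustment over all genes tested of a comparison, and a call was an adjusted p under 0.05. Errors are SE. Nothing in the labels ties replicates to separate animals: the p-values reflect the spread between these samples, which may be technical. The number of arrays limits the precision: the median SE was 0.151 (log2) for 3 against 2 arrays and 0.136 for 3 against 3. No pair of arrays was a duplicate (lowest SD of the log2 difference 0.231).

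The members, the gene lists and the alternatives were chosen with earlier results of these data known. The genes named are the members, the 3 genes most correlated with each, and from each list up to 4 genes called in the comparison averaged over the KO sets. Other names were chosen after their values were seen. The alternatives tried were a replicate block, arrays of one genotype only, other filters, normalizations, probe set summaries, variance models and thresholds, array weights, an immediate-early covariate, leaving out the 3 arrays low in it, and leaving out each array. The workflow was tested on simulated data. Promoter windows came from RefSeq.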

Additional observations from a re-analysis of the deposited data

Results flagged for a closer look

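Under the reading of the array titles, 2 genes went opposite ways in the genotypes on every array when Covi-Ox was added to cuprizone, as did 0.913% of all genes. Tagap was higher in KO by 0.23 (log2) and lower in WT (-0.34). On the probe set shared with Tagap1 the KO difference was 0.34 but the WT difference only -0.03. Ccn1, the secreted matrix protein, was higher in KO by 0.39 and lower in WT (-0.71). For Covi-Ox alone, by the same reading, Ccn1 was lower in KO (-0.29) and higher in WT (1.15), and 2.55% of all genes went opposite ways there. These differences between the genotypes were not tested. Under the reading of the other label fields, 0 of the 8 genes did so in either diet (0.871% and 2.16% of all genes). Genes that went the same way on every array of both genotypes were, by the other fields, F3 and Cd69 beside cuprizone (1.6% of all genes) and Tagap, Ccn1 and Leap2 with Covi-Ox alone (5.44%). By the titles they were 0 of 8 beside cuprizone (1.27%) and Leap2 alone (6.4%). The WT side of these counts chose the genes. Groups of 2 or 3 arrays are too small for a check of single outlying arrays.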

How the results depend on the processing

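The 8 genes gave 56 values over 7 comparisons, with 1066 recomputed under alternatives: 1006 kept direction and side of the threshold, 18 passed it newly, 5 lost it and 37 changed sign. All 37 were values under 2 SE in the reported fit. The 5 lost calls are F3 in set B against KO control: 4 stand in the report, and the other is a threshold of 0.01. Among the 18 were F3 and Cd69 in set B against KO cuprizone. With array weights F3 was 0.90 (adjusted p = 0.0138) and Cd69 1.13 (adjusted p = 0.0262). Without KO cuprizone 1, which leaves only arrays low in immediate-early genes in its group, Cd69 was 1.14 (adjusted p = 0.0299). Leap2 in set A against KO control was 0.60 without KO control 1, which leaves KO control 2 alone in its group. The filter at the 75th percentile kept 35 of the 56 values and dropped F3, Il12b and Leap2. Many genes lay near or below the array median, which limits the folds of F3, Cd69, Cd44 and Il12b. Where KO cuprizone 1 or a single KO control array stood alone, its spread was taken from the other groups.

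The number of genes called moved more than the member values. With Covi-Ox against without in KO, 17 became 7 with no filter, 10 with quantile normalization, 52 with the immediate-early covariate, 41 without the 3 low arrays, 1 from arrays of one genotype only, 2 at adjusted p under 0.01 and 4 at 2-fold, and 1 to 576 with an array left out (576 without KO control 1, 133 without KO cuprizone 1). Set A against KO control went from 4 to 1 with the replicate block, 0 with array weights, 19 with the covariate, 33 without the 3 low arrays, 0 from one genotype, 1 at 0.01, and 0 to 925 with an array left out. Set B against KO control went from 88 to 24 with the replicate block, 2 with array weights, 304 with the covariate, 263 without the 3 low arrays, 25 from one genotype, 4 at 0.01, 26 at 2-fold, and 0 to 876 with an array left out. Set A against KO cuprizone went from 0 to 1 with the block, 5 at the 75th percentile, 2 with quantile normalization, 190 with array weights, 3 with the covariate, 5 without the 3 low arrays, 1 from one genotype, and 0 to 263 with an array left out. Set B against KO cuprizone went from 19 to 12 with no filter, 30 at the 75th percentile, 32 with centring, 11 with a trend, 169 with array weights, 10 without the 3 low arrays, 0 from one genotype, 0 at 0.01, 5 at 2-fold, and 0 to 218 with an array left out. Set A against set B went from 1 to 3 with the block, 13 at the 75th percentile, 2 with quantile normalization, 10 with a trend, 91 with array weights, 70 with the covariate, 72 without the 3 low arrays, 3 from one genotype, 0 at 0.01, and 0 to 8 with an array left out. KO cuprizone against KO control went from 5 to 0 with the block, no filter, the mean of all probe sets, array weights, the covariate or 0.01, 15 at the 75th percentile, 12 with quantile normalization, 9 without the 3 low arrays, and 0 to 765 with an array left out. Beyond fewer arrays or genes, the cause was not tested.

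The replicate block changed no call among the 56 values. Of 71 pairs of arrays with the same number, 3 had deviations correlated above 0.1, so the numbers were not taken to pair samples.

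Signs turned in these values (log2). Without the 3 low arrays Ccn1 with Covi-Ox was -0.058. In set A against KO cuprizone, F3 was 0.020 with quantile normalization and with centring and 0.041 with array weights. Cd44 there was 0.0064 with quantile normalization, 0.0011 with centring, 0.085 with the covariate and 0.10 without the low arrays. Il12b there was -0.0066 with the covariate and -0.024 without the low arrays, and Il7r -0.029. Il12b in set B against KO cuprizone was -0.0015 without the low arrays. In set B against KO control Tagap was -0.048 with quantile normalization. In KO cuprizone against KO control Cd69 was 0.00031 with the covariate and 0.11 without the low arrays, Ccn1 0.020 and Leap2 -0.037. On the probe set shared with Tagap1, an alternative chosen after seeing the data, Tagap was -0.026 in set B against KO control, 0.049 in set B against KO cuprizone and -0.074 in KO cuprizone against KO control. With an array left out, the ranges that crossed 0 were these. Ccn1 with Covi-Ox ran from -0.024 to 0.11. In set A against KO control Il12b ran from -0.049 to 0.41, Cd44 from -0.030 to 0.27 and Il7r from -0.11 to 0.0088. In set B against KO control Il12b ran from -0.027 to 0.43 and Tagap from -0.11 to 0.24. In set A against KO cuprizone F3 ran from -0.14 to 0.14, Cd44 from -0.12 to 0.091, Il7r from -0.012 to 0.11 and Cd69 from -0.28 to 0.055. Ccn1 in set B against KO cuprizone ran from -0.17 to 0.028, and Leap2 in set A against set B from -0.027 to 0.11. In KO cuprizone against KO control Il12b ran from -0.12 to 0.34, Cd69 from -0.18 to 0.020 and Leap2 from -0.066 to 0.34.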
